A study of Sus scrofa with 12 samples.

Results

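The citric acid cycle enzymes described here are 9 genes, CS, IDH2, IDH3A, IDH3B, OGDH, DLST, SUCLG1, FH and MDH2, whose products act in the mitochondrial matrix. They were taken by symbol from the 25880 genes of the deposited tables, each of the 9 symbols had 1 row, and the subunits of complex II were left aside by the choice of members. RNA-seq had been done on longissimus dorsi, a loin muscle, of 12 Iberian pigs with 1 library per pig. All 12 were castrated males of a closed commercial population that had been fattened outdoors on acorns and grass, and no treatment was given. The High MB group held the 6 pigs with the highest estimated breeding values for myoglobin, and the Low MB group the 6 with the lowest. High MB pigs had breeding values of 0.159 to 0.206, and those of the Low MB pigs were -0.248 to -0.149. Their muscle held 2.48 ± 0.0657 and 1.39 ± 0.147 mg/g of myoglobin, respectively (mean and SD, n = 6 each). The groups were thus selected on a genetic prediction.

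The citric acid cycle burns the acetyl groups made from pyruvate, fatty acids and some amino acids to carbon dioxide, and passes the electrons as NADH and reduced flavin to the respiratory chain. Its enzymes sit in the matrix and the inner membrane of mitochondria, so oxidative muscle fibres, which are rich in mitochondria and in myoglobin, carry more of them than glycolytic fibres. Citrate synthase activity is widely used as a measure of the mitochondrial content of muscle.

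Gene counts summed to between 38914271 and 91318334 per pig, with 5 deep libraries at 59227608 or more (numbers 4 and 6 of the High MB pigs, 1, 5 and 6 of the Low MB pigs) and 7 standard ones at 40001432 or less. The TMM factor, which scales a library for its composition, ran from 0.891 to 1.21, and the highest belonged to High MB pig 2. The same pig had the lowest summed level of the general muscle fibre markers, 40443 CPM against 68256 to 113314 CPM in the other pigs. The muscle gene ACTA1 (skeletal actin) averaged 40410 CPM in High MB and 47817 CPM in Low MB pigs, and the myoglobin gene itself is not analysed here. The 9 enzymes had between 5323 counts (DLST) and 55471 counts (MDH2) in a single pig, all passed the filter on low counts, and together they took 0.209% to 0.344% of the gene counts.

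The start regions of the enzyme genes were read from the genome first, since genes whose mRNA moves together are often compared for shared promoter elements. The window was the 300 bases from 250 before to 50 after the outermost RefSeq start of each gene (assembly Sscrofa11.1). It was searched on both strands for 6 motifs of factors known from mitochondrial genes. Starts of other transcripts were not searched, and RefSeq lists 9 transcripts for OGDH and 5 each for CS and FH. The ETS site CCGGAAGT, which the GABP factor binds, lay in 3 of the 9 regions against 4.68% of 19556 regions of all genes, and the cAMP response element TGACGTCA in 1 of 9 against 2.26%. The GC box GGGCGG was found in 7 of 9 against 50.6%. No match was found in these 9 windows for the ERR element TCAAGGTCA (0.358% of all regions), the NRF1 core GCGCATGCG (1.94%) or the YY1 site AAGATGGCG (1.47%). No ETS or cAMP response match overlapped another match, whereas GC boxes overlapped one another in IDH3A, DLST and OGDH. The matches are descriptions of sequence, and no binding was measured. The 4 regions with an ETS site or a cAMP response element are shown on the coding strand, 5′ to 3′, with that motif in capitals. FH (chr10:12431794-12432093, minus strand) carries the ETS letters from 13 bases after its start, IDH3B (chr17:32954811-32955110, plus strand) from 6 bases after it and MDH2 (chr3:10132656-10132955, minus strand) from 80 bases before it. OGDH (chr18:50684941-50685240, minus strand) carries the cAMP response element from 51 bases before its start.
FH: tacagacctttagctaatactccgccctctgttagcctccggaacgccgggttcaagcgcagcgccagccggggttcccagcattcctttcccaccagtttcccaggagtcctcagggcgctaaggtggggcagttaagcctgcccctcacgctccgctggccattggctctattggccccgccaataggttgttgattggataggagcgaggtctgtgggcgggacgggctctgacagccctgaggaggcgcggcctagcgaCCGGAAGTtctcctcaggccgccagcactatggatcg
IDH3B: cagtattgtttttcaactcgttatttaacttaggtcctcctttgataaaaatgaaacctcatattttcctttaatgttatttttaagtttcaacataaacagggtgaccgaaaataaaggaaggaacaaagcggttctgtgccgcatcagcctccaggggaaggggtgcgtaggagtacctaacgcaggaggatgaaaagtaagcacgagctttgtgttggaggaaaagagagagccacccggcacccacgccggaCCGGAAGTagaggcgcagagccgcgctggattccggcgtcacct
MDH2: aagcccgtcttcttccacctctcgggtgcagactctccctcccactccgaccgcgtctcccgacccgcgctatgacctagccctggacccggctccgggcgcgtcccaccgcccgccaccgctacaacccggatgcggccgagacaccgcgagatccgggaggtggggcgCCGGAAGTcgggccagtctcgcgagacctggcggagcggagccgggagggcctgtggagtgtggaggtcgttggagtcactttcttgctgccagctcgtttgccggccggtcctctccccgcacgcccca
OGDH: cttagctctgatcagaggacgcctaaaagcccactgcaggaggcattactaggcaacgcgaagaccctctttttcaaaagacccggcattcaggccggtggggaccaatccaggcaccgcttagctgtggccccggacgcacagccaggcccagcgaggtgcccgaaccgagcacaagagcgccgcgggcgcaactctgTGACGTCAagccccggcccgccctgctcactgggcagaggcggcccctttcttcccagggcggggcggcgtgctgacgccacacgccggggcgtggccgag
The G and C content of the 9 regions ran from 47.7% (IDH3B) to 73.3% (IDH2), with a median of 58.7% over all regions.

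The enzymes differed widely in mRNA level. Per kilobase of all exons, MDH2 was the highest of the 9 at 299.9 ± 47.7 CPM per kb (mean and SD of 12 pigs), and FH the lowest at 30.8 ± 3.54 CPM per kb. Between them stood IDH2 at 265, SUCLG1 at 248, IDH3B at 115, OGDH at 91.8, CS at 86.9, IDH3A at 82.1 and DLST at 59.4 CPM per kb. The top of the order was firm between SUCLG1 and IDH3B, with SUCLG1 higher in all 12 pigs, and MDH2 exceeded IDH2 in 11 of 12. IDH2 and SUCLG1 kept their order in 8 of 12 pigs, OGDH and CS in 7, and CS and IDH3A in 8, so these neighbours did not differ beyond their spread. IDH3A was above DLST, and DLST above FH, in each of the 12 pigs. Exon lengths came from RefSeq, and the places of SUCLG1, CS and FH depend on them. With the longest RefSeq transcript in place of all exons, CS was at 102 and FH at 42.2 CPM per kb, and with the shortest CS was at 226 and FH at 82.0 CPM per kb. SUCLG1 was at 279 CPM per kb with the longest transcript, above IDH2 (265), and at 309 CPM per kb with the shortest, above MDH2 (299.9) as well.

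**Figure D1:**
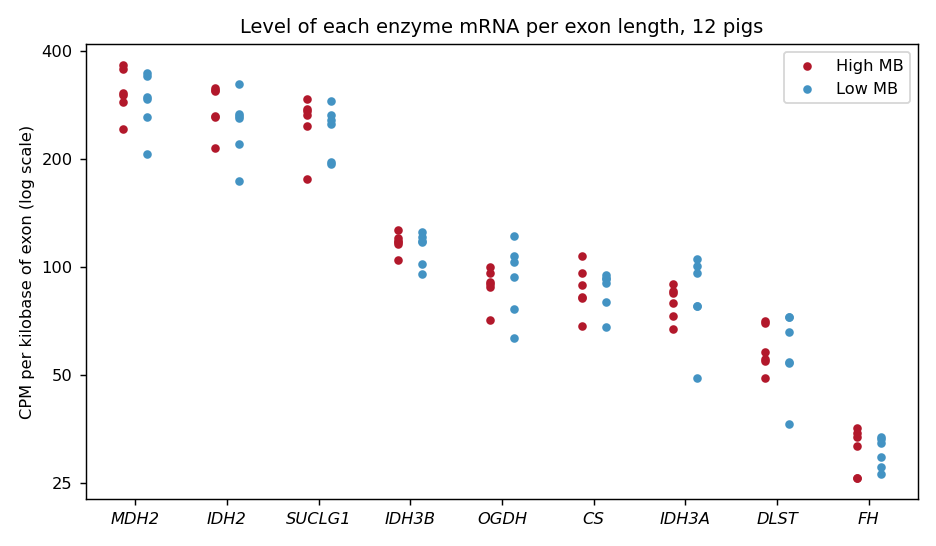
Level of each enzyme mRNA in CPM per kilobase of exon on a log scale (vertical axis), with genes ordered by their mean and 1 point per pig, High MB in red and Low MB in blue. MDH2, IDH2 and SUCLG1 form the upper tier, FH is lowest in all pigs, and the red and blue points overlap for all 9 genes.

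The design compared the High and Low MB groups over the whole transcriptome, and the 9 enzymes were read within that comparison. None of the 9 differed by the test used. edgeR's quasi-likelihood test called 0 of the 13373 genes tested (0%) with limits of 0.10 on the adjusted p-value and of 0.58 on the log2 fold change (log2 FC, either sign), and 1132 genes (8.46%) had an unadjusted p-value under 0.05, none of them a member. DESeq2 called 29 of 19220 genes (0.151%), again without a member. The CPM values of the groups did not overlap for 57 genes (0.426%), and they overlapped for all 9 enzymes. The log2 FC of the 9, positive where the High MB group was higher, had a median of 0.032 against -0.016 over all genes tested, and 7 of 9 were above 0. With upper-quartile scaling in place of TMM the median of the 9 was 0.090, with IDH2 at 0.21 and MDH2 at 0.15, and it was -0.0051 without Low MB pig 6. Every 95% interval lay inside the limit of 0.58 in both directions, the outermost bounds being 0.745-fold for IDH3A and 1.39-fold for IDH2. Within the deep libraries the median log2 FC of the enzymes was 0.055 and within the standard libraries 0.026. The labels name the pigs as separate individuals, so the spread is between animals. In a bulk sample, fewer cells of a type and less RNA per cell cannot be told apart.

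Citrate synthase, CS (ENSSSCG00000035686, chromosome 5, 21669778 to 21700737, minus strand), joins acetyl-CoA to oxaloacetate and opens the cycle. It was measured at 239 to 374 CPM (median 299) in the High MB group and at 237 to 332 CPM (median 319) in the Low MB group. The ranges nearly coincided at the low end, where pig 6 of either group lay, and High MB pigs 1 and 5 exceeded every Low MB pig. Its log2 FC was 0.018 ± 0.13 (SE, edgeR adjusted p = 0.984, exact permutation p = 0.9), and the sign turned in several alternative settings.

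Isocitrate is oxidised by the NADP-linked IDH2 and by the NAD-linked IDH3 complex, of which IDH3A is the catalytic and IDH3B a regulatory subunit. IDH2 (ENSSSCG00000001852, chromosome 7, 55654298 to 55675571, minus strand) was at 389 to 570 CPM (median 518) in the High MB group and at 315 to 585 CPM (median 475) in the Low MB group. The highest and the lowest pig were both of the Low MB group, numbers 3 and 6. Its log2 FC of 0.15 ± 0.15 (SE) was the largest of the 9 with all pigs, with a 95% interval from -0.17 to 0.47 (edgeR adjusted p = 0.803, exact permutation p = 0.368). It was 0.064 without Low MB pig 6, where IDH3A (-0.195) and OGDH (-0.170) were larger in size, and 0.25 without Low MB pig 3. IDH3A (ENSSSCG00000032498, chromosome 7, 47759436 to 47778948, minus strand) was at 178 to 237 CPM (median 216) in the High MB group and at 129 to 277 CPM (median 230) in the Low MB group. The Low MB range enclosed the High MB range, and the log2 FC was -0.079 ± 0.16 (SE, edgeR adjusted p = 0.918, exact permutation p = 0.848). With each pig left out, the log2 FC of IDH3A ran from -0.195 (without Low MB pig 6) to -0.0067 (without Low MB pig 1). IDH3B (ENSSSCG00000007173, chromosome 17, 32955061 to 32960110, plus strand) was the steadiest member, at 165 to 200 CPM (median 186) in the High MB group and at 150 to 197 CPM (median 186) in the Low MB group. High MB pig 5 alone exceeded the Low MB pigs, and the log2 FC was 0.052 ± 0.098 (SE, edgeR adjusted p = 0.911, exact permutation p = 0.457). It was 0.0073 without Low MB pig 6 and 0.096 without Low MB pig 3.

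The mRNA ratio of IDH3A to IDH3B, subunits of the NAD-linked complex, varied between pigs with an SD of 0.22 on the log2 scale. This SD was below that of IDH3A (0.29) and above that of IDH3B (0.13) on their own. Per kilobase, the IDH3A to IDH3B ratio had a median of 0.663 among High MB pigs (0.623 to 0.759) and of 0.768 among Low MB pigs (0.514 to 0.892), so the extremes were both Low MB pigs, 6 and 1. The ratio of IDH2 to IDH3A, the NADP-linked against the NAD-linked route, averaged 3.49 ± 0.414 in High MB and 3.03 ± 0.426 in Low MB pigs (SD, n = 6 each). These overlapped (exact two-sided permutation p = 0.0801, the lowest of 10 ratios compared, not adjusted), and the smallest p-value this design allows is 0.00216.

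OGDH and DLST encode the first and the second enzyme of the 2-oxoglutarate dehydrogenase complex, which makes succinyl-CoA. OGDH (ENSSSCG00000016743, chromosome 18, 50609415 to 50684990, minus strand) was at 333 to 467 CPM (median 422) in the High MB group and at 297 to 570 CPM (median 460) in the Low MB group. All High MB pigs fell within the Low MB range, and the log2 FC was -0.079 ± 0.15 (SE, edgeR adjusted p = 0.913, exact permutation p = 0.742). DLST (ENSSSCG00000002374, chromosome 7, 98091161 to 98111267, plus strand), the lipoate-carrying core, was at 125 to 180 CPM (median 144) in the High MB group and at 92.8 to 185 CPM (median 153) in the Low MB group. Again the Low MB group held both ends, and the log2 FC was 0.0072 ± 0.16 (SE, edgeR adjusted p = 0.993, exact permutation p = 0.842). The OGDH to DLST ratio per kilobase stayed between 1.29 and 1.79 over the 12 pigs, and its SD on the log2 scale, 0.15, was below that of OGDH (0.26) and of DLST (0.29) on their own.

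SUCLG1 encodes the alpha subunit of succinyl-CoA ligase, which pairs with SUCLA2 in the enzyme that makes ATP in the cycle and with SUCLG2 in the one that makes GTP. SUCLG1 (ENSSSCG00000008247, chromosome 3, 60142340 to 60177497, plus strand) was at 285 to 477 CPM (median 437) in the High MB group and at 315 to 470 CPM (median 411) in the Low MB group. High MB pig 2 was the lowest of the 12 pigs and High MB pig 5 the highest. The log2 FC was 0.077 ± 0.14 (SE, edgeR adjusted p = 0.91, exact permutation p = 0.669), and it was 0.19 without High MB pig 2 and 0.020 without Low MB pig 6. SUCLA2 was above SUCLG2 in each pig, by 2.54 to 3.31 times per kilobase, the ratio averaging 2.86 ± 0.136 in High MB and 3.00 ± 0.304 in Low MB pigs (SD, n = 6 each) (exact two-sided permutation p = 0.355).

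Fumarase, FH (ENSSSCG00000028178, chromosome 10, 12404143 to 12431843, minus strand), hydrates fumarate to malate, and mitochondrial malate dehydrogenase, MDH2 (ENSSSCG00000025486, chromosome 3, 10120121 to 10132705, minus strand), closes the cycle and also serves the malate-aspartate shuttle. FH was at 128 to 176 CPM (median 162) in the High MB group and at 132 to 167 CPM (median 154) in the Low MB group. High MB pigs lay on both sides of the Low MB range, with 2 above and 2 below it, and the log2 FC was 0.032 ± 0.11 (SE, edgeR adjusted p = 0.956, exact permutation p = 0.805). MDH2 was at 502 to 759 CPM (median 629) in the High MB group and at 429 to 720 CPM (median 613) in the Low MB group. High MB pigs 3 and 5 exceeded all Low MB pigs, Low MB pig 6 was lowest, and the log2 FC was 0.089 ± 0.15 (SE, edgeR adjusted p = 0.89, exact permutation p = 0.509). Without Low MB pig 6 the log2 FC of MDH2 was 0.0077, and without High MB pig 2 it was 0.17. The exact permutation tests of the 9 genes were two-sided, on log2 CPM and not adjusted.

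**Figure D2:**
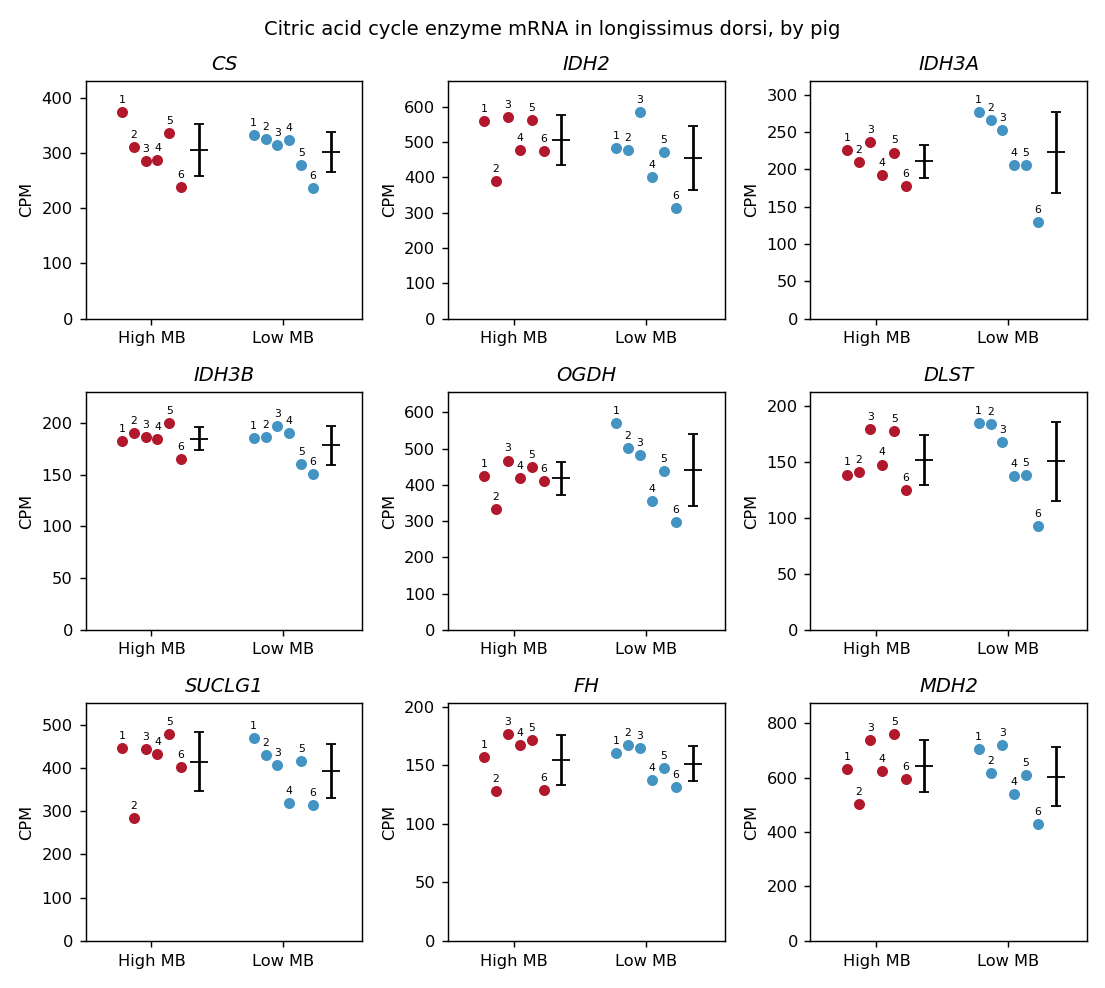
CPM of each enzyme (vertical axes from 0) in the 6 High MB pigs (red) and the 6 Low MB pigs (blue), with the pig's individual number above its point and the group mean ± SD as a bar at the right. The groups overlap in all 9 panels, and Low MB pig 6 is the lowest point in 7 of them.

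**Figure D3:**
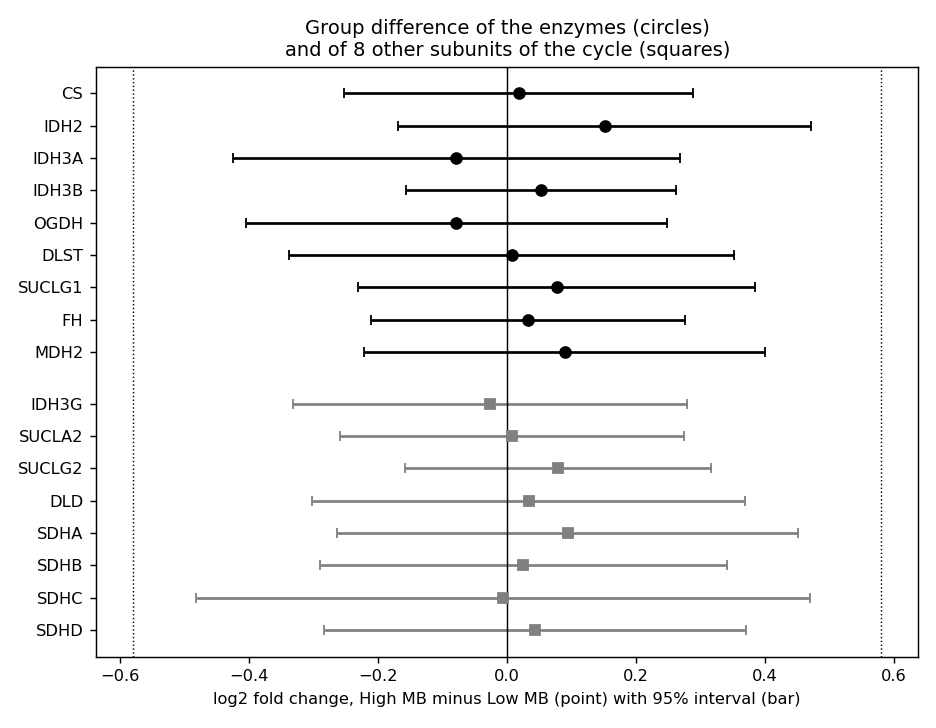
log2 fold change of the High MB over the Low MB group (horizontal axis) with its 95% interval for the 9 enzymes (circles) and 8 other subunits of the cycle (squares), where dotted lines mark the limit of 0.58. All intervals shown cross 0 and lie inside the dotted lines.

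The enzymes differed more between single pigs than between the groups, and several pigs stood low or high for most of them. Low MB pig 6 had the lowest CPM of the 12 pigs for 7 of the 9, all but SUCLG1 and FH, for which High MB pig 2 was lowest. In Low MB pig 6, IDH3A reached 0.511 times and DLST 0.554 times the median of the other 5 Low MB pigs, while FH (0.821 times) and IDH3B (0.805 times) were least reduced. The library of Low MB pig 6 was one of the deep ones and its TMM factor was 0.999. Its summed muscle fibre markers were at 88886 CPM, while its macrophage (60.8 CPM), fibroblast (828 CPM) and red blood cell markers (84.3 CPM) were the highest of the Low MB group and its adipocyte markers (405 CPM) the lowest. Most of the adipocyte sum came from PLIN4 (316 CPM on average in Low MB pigs) and LIPE (87.7 CPM), with ADIPOQ at 29.1 CPM. The sum is therefore not a count of fat cells. The part of these markers in the low values was not tested. High MB pig 2, whose macrophage markers were at 123 CPM against 51.9 to 86.1 CPM in the other High MB pigs, was below all the other High MB pigs for IDH2, OGDH, SUCLG1, FH and MDH2 and between them for the other 4 enzymes. None of the 9 enzymes was above its median over the pigs in High MB pig 6 or Low MB pig 6, while 1 of 9 was in High MB pig 2 and in Low MB pig 5, and 2 of 9 were in Low MB pig 4. At the other end, all 9 enzymes were above their median over the pigs in High MB pig 5, and 8 of 9 in High MB pig 3 and in Low MB pigs 1, 2 and 3. The summed CPM of the 9 spanned 2489 to 3358 in High MB pigs (median 3037) and 2096 to 3367 in Low MB pigs (median 3011), and Low MB pigs again formed both ends.

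**Figure D4:**
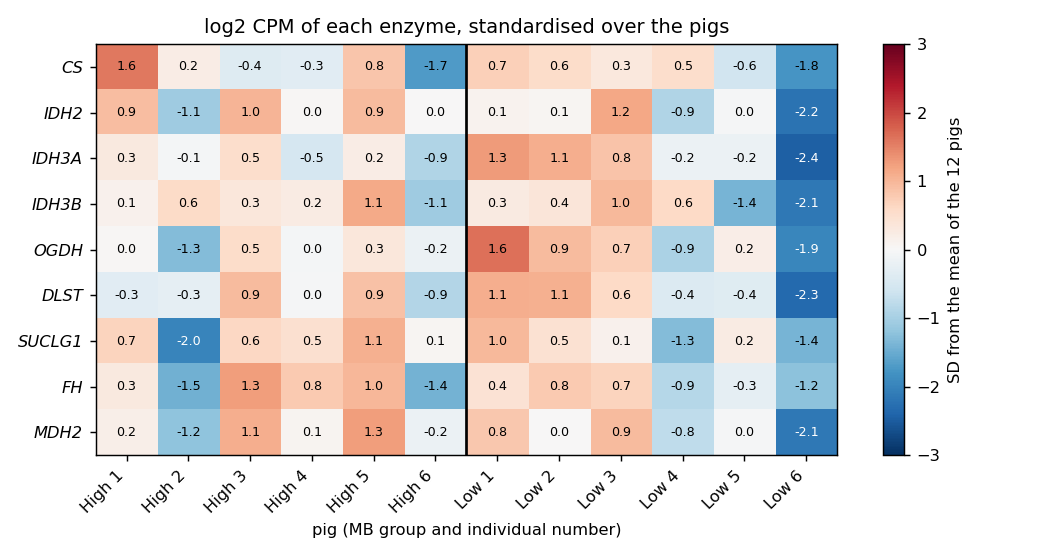
log2 CPM of each enzyme (rows) in each pig (columns, High MB left of the line and Low MB right of it), given as SD from the mean of the 12 pigs. Low MB pig 6 is blue in every row, from -1.2 for FH to -2.4 for IDH3A, and High MB pig 5 is red in every row.

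All 36 pairs of enzymes had a positive Pearson r of log2 CPM over the 12 pigs, with a median of 0.748. These correlations describe the 12 libraries, in which all genes share the depth and the scaling of a pig. IDH2 with MDH2 (r = 0.941) and IDH3A with DLST (r = 0.933) were the closest pairs, and IDH3B with SUCLG1 (r = 0.253) and CS with SUCLG1 (r = 0.330) the loosest. Against the mean of the other 8, DLST (r = 0.921) and MDH2 (r = 0.915) followed most closely, and CS (r = 0.626) and IDH3B (r = 0.676) least. Low MB pig 6 carried part of this. Without it the median r was 0.578 over 11 pigs, 35 of 36 pairs were above 0, and the range ran from -0.064 to 0.889. Within the groups the median r was 0.588 in the High MB pigs and 0.861 in the Low MB pigs (n = 6 each), and the difference was not tested. The mean profile of the 9 had r = -0.354 with library size.

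The coefficient of variation of the enzymes over the 12 pigs ran from 8.30% (IDH3B) to 18.6% (IDH3A and DLST), with a median of 15.9% against 22.9% over all 13373 genes tested and 18.2% over the 1196 with a mean above 100 CPM.

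Outside the 9, the genes whose log2 CPM was most like the mean standardised profile of the enzymes over the 12 pigs were UQCRFS1 (r = 0.988), the iron-sulphur subunit of complex III, ETFA (r = 0.979), which takes electrons from fatty acid oxidation, ATP5PB (r = 0.973), an ATP synthase subunit, and the complex II subunits SDHA (r = 0.973) and SDHB (r = 0.971). ENSSSCG00000000405, which has no symbol in the tables, FUNDC2 and ATP5F1C followed with r from 0.959 to 0.965. The median r of the 13364 other genes was -0.039, and 57 of them were above 0.9. Without Low MB pig 6, 4 of these 8 were still among the first 8, with UQCRFS1 (r = 0.970) first and ETFA (r = 0.960) second. UQCRFS1 itself had a log2 FC of 0.087 between the groups.

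Muscle myoglobin content varied within each group, and the enzymes were also set against it there, so that the difference between the group means did not enter. The pigs had still been selected on breeding values for this trait. Content spanned 2.376 to 2.559 mg/g in High MB and 1.226 to 1.58 mg/g in Low MB pigs, so the Low MB pigs weigh more in the slope. The slopes on log2 expression per 0.1 mg/g were above 0 for all 9 enzymes, with a median of 0.078 against -0.00035 over all genes, of which 6667 of 13373 were above 0. Since the enzymes move together, the 9 slopes are not 9 separate observations. None passed the test. edgeR called 0 of 13373 genes (0%), and 515 (3.85%) had an unadjusted p-value under 0.05, none of them an enzyme. MDH2 had the steepest slope, 0.098 ± 0.068 (SE), and IDH3B, with 0.074 ± 0.045 (SE), the largest relative to its error, and all 9 had an edgeR adjusted p = 0.9997. The weakest slope was that of SUCLG1, 0.023 ± 0.073 (SE). Low MB pig 6, which combined a myoglobin content near the low end of its group with the lowest enzyme levels, decided the direction for 4 genes. Without it the slopes were -0.0049 for IDH3A, -0.029 for OGDH, -0.0017 for DLST and -0.022 for SUCLG1. Without Low MB pig 2 the slopes were larger, 0.205 for IDH3A and 0.202 for DLST.

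**Figure D5:**
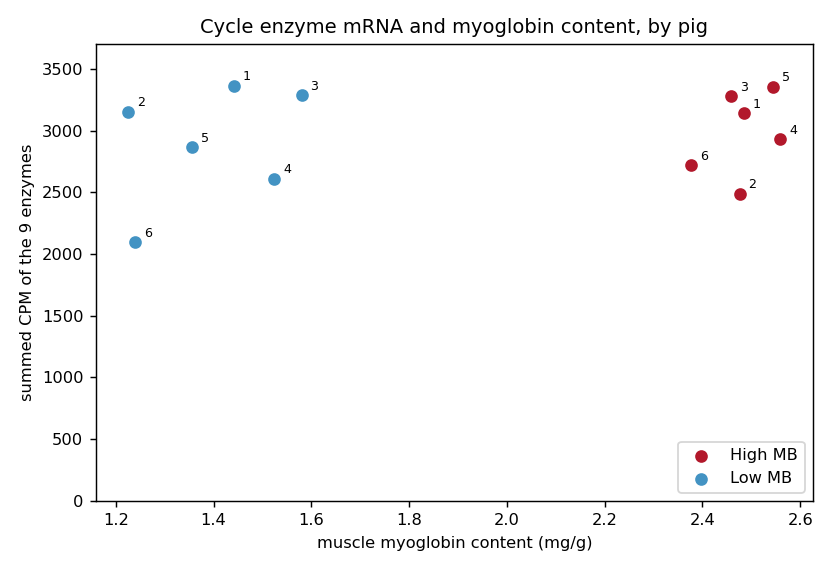
Summed CPM of the 9 enzymes (vertical axis from 0) against muscle myoglobin content in mg/g (horizontal axis), 1 point per pig with its individual number, High MB red and Low MB blue. The groups are far apart on the horizontal axis and cover the same heights, 2489 to 3358 CPM in red and 2096 to 3367 CPM in blue.

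Other subunits of the cycle were compared in the same fit. Of IDH3G, SUCLA2, SUCLG2, DLD and the 4 subunits of complex II, 0 of 8 had an edgeR p-value under 0.05 (background 8.46%), with a median log2 FC of 0.029. SDHA, the flavoprotein of complex II, had the highest value (0.094, with 371 ± 66.7 CPM in High MB and 347 ± 77.5 CPM in Low MB pigs, SD, n = 6 each) and IDH3G, a regulatory subunit of the NAD-linked isocitrate dehydrogenase, the lowest (-0.027).

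Genes that feed the cycle with pyruvate also did not pass the test. Of 13 tested (MPC1 is not analysed here), 0 had a p-value under 0.05 (background 8.46%) and the median log2 FC was 0.044. The pyruvate dehydrogenase kinases, which switch the entry complex off, gave both ends, PDK2 with 0.15 and PDK4 with -0.34. PDK4 was far more variable than any of the 9 enzymes, at 194 to 1760 CPM in the High MB group and 358 to 2587 CPM in the Low MB group, so its 95% interval was wide, from -1.61 to 0.94. Of 3 genes of lipoate attachment tested (LIPT1 is not analysed here), 1 had an edgeR p-value under 0.05 (background 8.46%). This was LIPT2 (edgeR unadjusted p = 0.0448), the octanoyltransferase that starts the making of the cofactor of DLST. LIPT2 was at 2.95 ± 1.19 CPM in High MB and 4.44 ± 0.831 CPM in Low MB pigs (SD, n = 6 each). Its log2 FC was -0.59 (edgeR adjusted p = 0.578, exact permutation p = 0.0325), and the highest of the list was LIAS, lipoate synthase, with -0.017.

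Of 16 genes of the shuttles and of filling reactions tested (OGDHL was near 0 counts and was not), 1 had a p-value under 0.05, a share below the background of 8.46%. This was SLC25A13, an aspartate-glutamate carrier of the malate-aspartate shuttle, at 6.39 ± 0.886 CPM in High MB and 4.97 ± 0.850 CPM in Low MB pigs (SD, n = 6 each), with a log2 FC of 0.36 (edgeR adjusted p = 0.564, exact permutation p = 0.0325). SLC25A12, the carrier of the same family that was at 119 CPM in both groups, had a log2 FC of -0.0031. PCK2, the mitochondrial phosphoenolpyruvate carboxykinase, was the lowest of the list with -0.39 at under 1.5 CPM in every pig. Among 11 regulators of mitochondrial genes tested (PERM1 is not analysed here), 0 had an edgeR p-value under 0.05 (background 8.46%), 2 of 11 were above 0 and the median was -0.104. PPARGC1B, a coactivator of mitochondrial genes, was highest with 0.11 and PPARA, a receptor that drives fatty acid oxidation genes, lowest with -0.36 (edgeR adjusted p = 0.647, exact permutation p = 0.119). GABPA, whose product binds the ETS site shown above, had a log2 FC of -0.15 (edgeR adjusted p = 0.678, exact permutation p = 0.102). YY1, whose motif was among those searched, had a log2 FC of -0.19 (edgeR adjusted p = 0.602) and the lowest exact permutation p of the 11, 0.0238, not adjusted.

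Markers of fibre types and of other cells that the muscle samples can hold were compared in the same fit, and none passed the adjusted limit. Of 7 slow fibre markers tested (MYH7 and TPM3 are not analysed here), 5 had an edgeR p-value under 0.05, all higher in High MB pigs, against the background of 8.46%, with a median log2 FC of 0.56 and adjusted p-values of 0.563 or more. Their summed level spanned 6812 to 13193 CPM in High MB and 5024 to 8600 CPM in Low MB pigs. Of 6 fast fibre markers tested (the fast myosin genes and MYLPF are not analysed here), 1 had an edgeR p-value under 0.05 (background 8.46%). This was ATP2A1, the calcium pump of fast fibres, which was lower in the High MB group (log2 FC -0.44, edgeR adjusted p = 0.578). TNNT3 had -0.033, TNNI2 -0.072, TNNC2 -0.12, ACTN3 -0.35 and PVALB 0.56. The 6 summed to 20934 to 45566 CPM in High MB and 36146 to 49205 CPM in Low MB pigs. The 20934 CPM was High MB pig 2, and the other High MB pigs were at 36662 CPM or more. The 6 general muscle fibre markers tested had no p-value under 0.05 and a median log2 FC of -0.081. At an edgeR p-value under 0.05, 5 of 7 macrophage markers (51.9 to 123 CPM summed in the High MB group, 27.0 to 60.8 CPM in the Low MB group), 3 of 6 fibroblast markers (630 to 1118 and 326 to 828 CPM), 2 of 7 adipocyte markers (375 to 756 and 405 to 606 CPM), 2 of 2 red blood cell markers tested (66.4 to 146 and 38.3 to 84.3 CPM) and 0 of 4 endothelial markers tested (114 to 157 and 70.1 to 175 CPM) were higher in the High MB group. Among the adipocyte markers, LIPE was lower in the High MB group (log2 FC -0.27) and PLIN4 was nearly level (0.088). These genes made up most of the adipocyte sum, PLIN4 at 335 and 316 CPM and LIPE at 72.9 and 87.7 CPM (means, High and Low MB). None of the markers tested was at 0 in any pig, and SLC4A1, a red blood cell marker at 0 counts in 9 pigs, was not tested. With Low MB pig 6 and High MB pig 2 left out, the ratio of the mean summed CPM of the High MB over the Low MB group was 1.48 for the slow fibre and 1.61 for the macrophage markers, against 1.44 and 1.71 with all pigs. For the fast fibre markers it was 0.938 against 0.872, and for the general muscle fibre markers 0.976 against 0.883. The part of these markers in the small differences of the enzymes was not tested.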

How the data were processed

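Longissimus dorsi RNA of 12 pigs was sequenced as paired reads, with a kit whose description names no strand option. The authors trimmed the reads, aligned them to Sscrofa11.1 with HISAT2, counted them with HTSeq and deposited raw counts per gene, which are whole numbers without normalization. The versions, the annotation release and the strand and overlap settings are not given in the sources used here. Of the reads that HTSeq sorted into assigned, ambiguous and without a gene, 47.0% to 48.2% were assigned to a gene, and the summary lines were left out of the library sizes. The 12 tables by transcript were not used.

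Counts were tested with edgeR 4.0.16 in R 4.3.3 (TMM, filterByExpr, glmQLFit and glmQLFTest, no covariate) over the whole table, with Benjamini-Hochberg adjustment over the 13373 genes kept. DESeq2 1.42.0 was an alternative. The scripts were tested on simulated data. CPM used TMM-scaled library sizes, with a prior count of 2 on the log2 scale. Single genes and ratios were compared with exact permutation tests over 924 regroupings. The slope on myoglobin content was fitted with the group as a covariate and the content centred within each group. Other scalings, filters, depth classes, the individual number as a block and each pig left out were tried. The members, the gene lists and the named genes (members, list genes with an unadjusted p-value under 0.05, the highest and lowest of each list, and the 8 genes most like the members) were chosen with earlier results of these data known. SLC25A12, GABPA, YY1, PPARGC1A and the genes named for their slopes were picked with their values in view. RefSeq gave positions and sequences on Sscrofa11.1, and its annotation may differ from the annotation used for counting. TTN, VWF, CLDN5, HBA1 and the listed genes so named in the report are not analysed here, and 1 further listed gene is not reported.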

Additional observations from a re-analysis of the deposited data

Results flagged for a closer look

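Among 40 sets of 6 values examined for a pig far from the rest of its group, 3 stood out, which is near the number chance gives at about 1 in 20, and all 3 were ratios per kilobase in High MB pig 2. The first 2 share SUCLG1, which was lowest in this pig at 285 CPM, and are not separate observations. SUCLA2 over SUCLG1 was 0.708 in this pig, and the nearest High MB pig was at 0.537. SUCLG2 over SUCLG1 was 0.235, and the nearest High MB pig was at 0.182. IDH2 over IDH3A was 2.69, and the nearest High MB pig was at 3.5. High MB pig 2 had the highest TMM factor, 1.21, and the lowest summed muscle fibre markers, 40443 CPM, and the part of these in the ratios was not tested.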

How the results depend on the processing

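In the comparison of the groups, 0 enzymes were called in any of the settings run, DESeq2, other scalings and filters, depth classes and each pig left out included. The number of genes called over the whole table was 0 in edgeR, 1 with the deep libraries only and 29 with DESeq2, and the cause was not tested. The sign of small log2 FC values turned for CS with the depth class as a covariate (-0.027) and in the deep libraries only (-0.063), for DLST with the depth class (-0.030) and in the standard libraries only (-0.026), and for IDH3B in the standard libraries only (-0.0036). With each pig left out, the log2 FC ran from -0.049 to 0.079 for CS, from -0.100 to 0.086 for DLST, from -0.170 to 0.0084 for OGDH and from -0.0083 to 0.103 for FH, and the median of the 9 from -0.0051 (without Low MB pig 6) to 0.080. Slopes on myoglobin with each pig left out ran from -0.0049 to 0.205 for IDH3A, from -0.029 to 0.117 for OGDH, from -0.0017 to 0.202 for DLST and from -0.022 to 0.066 for SUCLG1. The lowest values came without Low MB pig 6 and the highest without Low MB pig 2. Pigs with the same individual number did not deviate together (correlations from -0.212 to 0.144), so the numbers were not taken as pairs. With the individual number as a block, the slopes were -0.010 for IDH2, -0.061 for OGDH, -0.017 for DLST, -0.120 for SUCLG1, -0.088 for FH and -0.0053 for MDH2, and the median log2 FC of the 9 was 0.033. Of the 8 genes most like the enzymes, 4 were shared without Low MB pig 6, a setting added after the values had been seen. With upper-quartile scaling the median log2 FC of the 9 was 0.090. The 95% intervals of the enzymes include differences as large as 1.39-fold, which is below the log2 FC limit of 0.58 set for a call.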

Other observations

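Among 51 other genes of the cycle and its surroundings that were tested, 4 (7.84% against 3.85% of all genes) had an unadjusted edgeR p-value under 0.05 for the slope of expression on myoglobin content within the groups, and each had an adjusted p-value of 0.9997. They were chosen for their values. Per 0.1 mg/g of myoglobin, the slope was 0.15 ± 0.066 (SE) for PDK2 and -0.18 ± 0.071 (SE) for PDK3, both kinases of the pyruvate dehydrogenase complex. It was 0.17 ± 0.077 (SE) for ESRRA, a nuclear receptor that acts on mitochondrial genes, and -0.16 ± 0.072 (SE) for PPARD, a receptor of fatty acids. With the mean profile of the 9 enzymes over the 12 pigs, log2 CPM had r = 0.890 for ESRRA, 0.628 for PDK2, -0.117 for PPARD and -0.676 for PDK3. PPARGC1A, the coactivator best known for mitochondrial genes, was at 6.09 to 44.6 CPM in the Low MB group and at 14.6 to 26.4 CPM in the High MB group, with r = 0.858. Its slope was -0.039 ± 0.16 (SE). Over the 11 regulators of mitochondrial genes tested, r ran from -0.518 (NRF1) to 0.890 (ESRRA), with -0.260 for GABPA and 0.072 for TFAM.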
